A study of Drosophila melanogaster with 4 samples.

Results

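The baseline transcriptome of Kc167 cells was read from the array of untreated control cells alone, 1 of 4 arrays in the study. All 13966 probe sets that are not Affymetrix controls were ranked by their signal within this array, and none was set against a treated array. Kc167 cells are an established Drosophila melanogaster culture of embryonic origin, labelled as female. The control cells were kept at 25 °C in serum-free CCM3 medium with antibiotics, left for 72 h in a 150 mm dish without hormone, given a mock treatment and rested for 90 min before total RNA was taken with Trizol. The remaining 3 arrays, from cells given the ecdysone analog muristerone A, gamma rays or both, were not used. With 1 array no value has a replicate and no test was made, so the number of arrays sets the limit on precision.

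Kc cells are widely described as resembling hemocytes, the blood cells of insects. Plasmatocytes, the most common Drosophila hemocytes, engulf microbes and dying cells, secrete extracellular matrix and are specified by the GATA factor Serpent (srp). Crystal cells and lamellocytes are the other mature classes, which serve melanization and the encapsulation of parasites. A growing culture is also known to devote much of its transcript pool to ribosomes, protein turnover and energy metabolism.

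Each value is a MAS5 signal, the summary that Affymetrix software makes of the probe pairs of a probe set, on a linear scale. Probe sets differ in how strongly they hybridize, so the ranks order signals and are no count of transcripts. The signals ran from 3.5 to 54675.9 units with a median of 121.4. Among probe sets, 12443 carried the symbol of 1 gene, 327 carried several and 1196 carried none. The named probe sets represented 10844 genes, each by its probe set of highest signal, with a median of 137.6 units.

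Signals of genes that are hardly expected in a cultured cell line gave a reference for the low end. The 124 measured odorant, gustatory and ionotropic receptors, which detect odors and tastes in sensory neurons, had a median of 69.0 units, and their 95th percentile, 375.3 units, is called the chemoreceptor level here. Control probe sets for bacterial, mouse and yeast sequences, 23 in all, had a median of 83.8 and reached 248.9 units. The level therefore lay above all of these controls. By its definition 7 chemoreceptors exceed it, up to Gr8a at 605.3 units. It was exceeded by 1939 of 10844 genes, or 17.9%, the background for every count of list members above it. Of the Drosophila control transcripts, GAPDH had signals of 671.9, 2075.8 and 963.2 units at its 5′ end, middle and 3′ end, and eIF-4a had 3437.3, 11205.3 and 3464.8. The 18S rRNA control was uneven, with 24.1, 615.9 and 665.9 units in the same order.

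**Figure D1:**
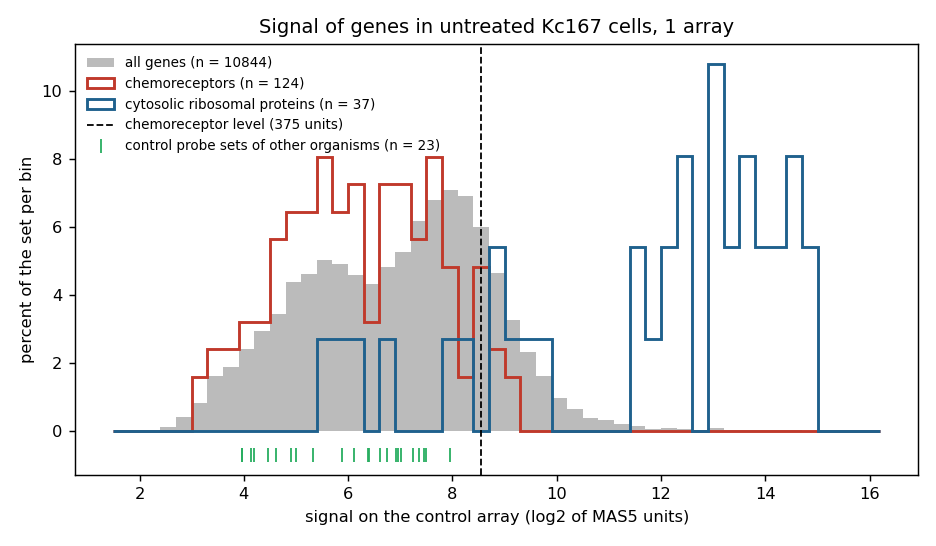
Distribution of signal (log2 of MAS5 units, horizontal) over all 10844 genes, the 124 chemoreceptors and 37 cytosolic ribosomal protein genes, as percent of each set per bin; ticks mark the 23 control probe sets of other organisms and the dashed line the chemoreceptor level. Most ribosomal protein genes sit far to the right of the level, and all ticks lie to its left.

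Ribosomal protein genes dominated the top of the ranking. Of the 25 genes of highest signal, the ones seen by a single plain probe set began with RpL17 at 28185.7 units, RpLP1 at 27455.9, RpS30 at 26474.3 and RpS26 at 24360.5. RpS7 (22907.6), RpS20 (21413.9), RpS15 (18750.6) and RpS18 (16127.2) followed. They encode proteins of the large (RpL) and small (RpS) subunits of the cytosolic ribosome. Rack1, which encodes a scaffold protein bound to the small subunit, had 16014.9 units. Below it came RpL3 (14878.1), RpL37-1 (12723.8), RpLP0 (12652.2), RpLP2 (11901.9), RpL32 (11322.1), RpL29 (10435.1) and RpS28b (9091).

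A few genes outside the ribosome reached the same range. CG15784, a gene named by its number alone, had 12039.2 units. Nplp2, a gene of small secreted peptides expressed in hemocytes, ranked 19th among genes with 10888.3 units. Cyp1, a cyclophilin gene whose product helps proteins to fold, had 10522.9 units, and Inos, which encodes the inositol-3-phosphate synthase of inositol biosynthesis, had 9128. These 4 genes were each measured by a single plain probe set.

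The other 5 of these 25 genes rested on a single bright probe set that the remaining probe sets of the gene did not match. The gene of highest signal, rut, encodes an adenylyl cyclase known from learning mutants. Its probe set with the suffix _f_at, which Affymetrix gives to probes shared by a family of sequences, had 54675.9 units, and its plain probe set had 582.8. CG34347 had 19089.9 units at an _f_at probe set and at most 71.5 at the other 3. For dpr3, a gene of the immunoglobulin superfamily, the values were 9301.9 at an _f_at probe set against 27.8 and 9.4. For mam, the Notch co-activator Mastermind, they were 9055.4 at an _f_at probe set against 73.9. CG13674 had 12568.2 and 1802.7 units at an _r_at and an _f_at probe set, and was with rut the only gene of these 5 whose probe sets all exceeded the chemoreceptor level. With plain probe sets alone, or with the lowest probe set of each gene, SPARC, eEF1gamma, RpS21, RpL27 and RpL10Ab took the places of these 5.

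**Figure D2:**
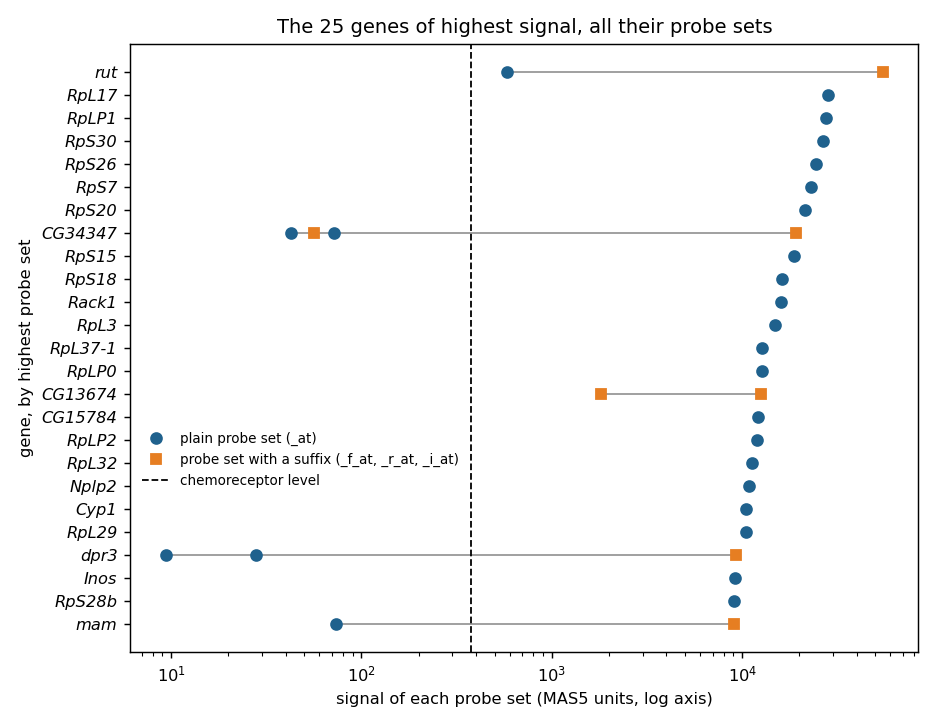
Signal (MAS5 units, log axis) of every probe set of the 25 genes of highest signal, ordered by the highest probe set; circles are plain probe sets and squares those with a suffix. In 20 genes a single circle stands alone, while rut, CG34347, CG13674, dpr3 and mam have probe sets far apart.

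Disagreement between probe sets of a gene was common and is the one measure of error within this array. Of the 1209 genes with several probe sets, 946 had 2, and the signals of these 2 differed by a median factor of 3.40. Genes whose signals lie closer together than this are therefore not reliably ordered. Of 331 genes whose highest probe set exceeded the chemoreceptor level, 35 exceeded it with all their probe sets. The choice of the highest probe set can favour genes with several. Of these, 27.4% lay above the level, against 16.7% of genes with 1 probe set. How much of this gap comes from the choice was not tested. Probe sets with the suffix _f_at were also brighter as a class, with a median of 509.8 units over 53 sets, against 120.7 over 13546 plain ones. The part of shared probes in the high ranks was not tested.

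**Figure D3:**
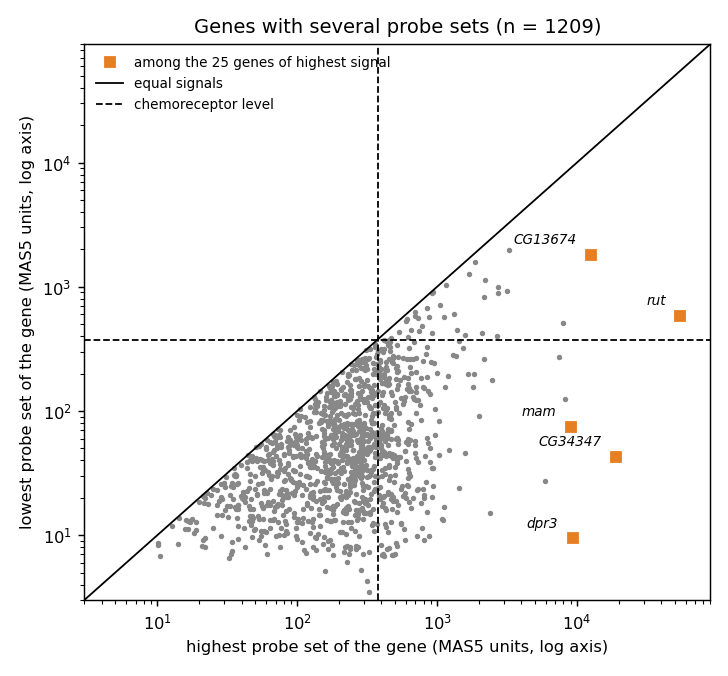
Highest against lowest probe set (MAS5 units, log axes) of the 1209 genes with several probe sets; squares mark the 5 that are among the 25 genes of highest signal, the solid line equal signals and the dashed lines the chemoreceptor level. Most points lie well below the line, and few genes lie beyond the level on both axes.

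The ranking of named genes leaves out a large part of the brightest probe sets. Over the whole array 10.9% of probe sets did not carry exactly 1 gene symbol. In the top 1% by signal the count was 58 of 139, or 41.7%, and in the top 25 it was 14. Named genes thus cover fewer of the most abundant signals than of the array as a whole. Of 93 cytosolic ribosomal protein genes and paralogues in the annotation, 37 had a probe set of their own and the others were not analysed here.

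The measured ribosomal protein genes had a median of 5315.1 units and 31 of 37 lay above the chemoreceptor level, against 17.9% of all genes. In all, 28 were in the top 10% of genes (background 10.0%) and 26 in the top 1% (background 0.996%), so they made up 24.1% of the 108 genes there. The lowest members were mostly paralogues of a standard subunit. RpL22-like had 43.6 units, RpS10a 62.2, RpS28a 67.5, RpL10Aa 118.6 and RpS19b 273.5, while RpS28b and RpL10Ab, relatives of RpS28a and RpL10Aa, had 9091 and 7661.5. RpS29, a standard subunit, was also low at 298.1 units.

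Factors that drive translation were high in part. Of 41 initiation and elongation factors, 23 exceeded the level, or 56.1% against 17.9% of all genes. In the top 10% were 18 of them, and their median was 488.8 units. eEF1gamma, a subunit of the exchange complex of the elongation step, had 8245.3 units, and eIF4A, the RNA helicase of initiation, had 7055.2. Subunits of the scaffold factor eIF3 were among the high ones, with eIF3f1 at 3382.2 and eIF3m at 2775.1, but eIF3f2 was at 21.5. Of the cap-binding proteins, eIF4E1 had 630.8 units and the paralogues ran from eIF4E3, a testis form, at 8.4 to eIF4E7 at 134.6. Aminoacyl-tRNA synthetases, which charge transfer RNAs, are a list added after signals were seen. Of 31 measured, 11 exceeded the level, led by AsnRS (1181.4), TyrRS (1038.6, with 82.8 at its other probe set) and LysRS (948.5). Mitochondrial ribosomal proteins had more modest signals: 28 of 66 exceeded the level and none was in the top 1%, with mRpL23 highest at 1209.5 units.

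The proteasome, which degrades ubiquitin-tagged proteins, separated by paralogue. Of 26 standard subunits 25 exceeded the level, against 17.9% of all genes, and 21 were in the top 10%, with a median of 978.4 units. Prosbeta4 had 5017.3 units and Prosalpha2 had 4739.7, and Prosalpha7 was the exception at 82.4. Of 13 paralogues with the suffix T or R, several of them known as testis forms, none exceeded the level and the median was 32.2. The standard subunit Prosalpha4 had 1113.2 units, while its paralogues Prosalpha4T1 and Prosalpha4T2 had 28.6 and 44.8. The lists were divided in this way after their values were seen. Genes that encode ubiquitin had high signals, with the ubiquitin-ribosomal fusion gene RpS27A at 4991.8 and the polyubiquitin gene Ubi-p63E at 4273.4 units.

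Folding and splicing machinery was likewise high. The 8 subunits of the cytosolic chaperonin, which folds actin and tubulin, had a median of 1283.5 units. Of these 8, 7 exceeded the level, against 17.9% of all genes, from CCT8 at 644.3 to CCT4 at 2489.1. CCT7 was the exception at 255.3. Sm and LSm proteins, the core of spliceosomal and related RNA particles, are a list added after signals were seen. All 8 measured exceeded the level, led by SmD1 (2399.2), SmB (1525.2) and SmE (1520.6). Among chaperones 6 of 14 exceeded it, with Hsc70-3 at 2374.6 (15 at its other probe set), Gp93 at 1922.8 and Hsp60A at 1641. Of stress-induced chaperones, Hsp26 had 746.8 units, Hsp68 317.8 and Hsp27 44.1.

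Energy metabolism genes often exceeded the level. Of 65 subunit genes of the respiratory chain and ATP synthase, 46 did, or 70.8% against 17.9% of all genes. Standard subunits and paralogues were then also counted apart, after the values were seen. The paralogue list also holds a gene from outside the 65, so these lists are no exact division of them. Of 51 standard subunits 43 exceeded the level, 36 were in the top 10% and the median was 927 units. COX4 of cytochrome c oxidase had 5509.7 units, and ATPsynD, ATPsynE and ATPsyngamma of the ATP synthase had 4874.3, 3355.8 and 3302. Of 15 paralogues with the suffix L, 3 exceeded the level, ATPsynbetaL (702, in the top 10%), ND-B14.5AL (410.5) and ND-20L (386.5), and the median was 63.1. COX7C (11.9), ND-PDSW (53.7) and ATPsynbeta (182.8) stood apart as standard subunits of low signal, and ATPsynbeta was lower than its paralogue ATPsynbetaL. Of 11 citric acid cycle enzymes 10 exceeded the level, from ScsbetaA at 451.4 to Idh at 2542.2, and Ogdh, a subunit of the oxoglutarate dehydrogenase complex, was at 9.2. Of 8 glycolytic enzymes 6 exceeded it, with Ald1 highest at 2109.5, Gapdh1 at 1070.5 and Hex-A at 19.5.

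Genes of the secretory route ranged from very bright to low signals. Among them, the lists of entry into the endoplasmic reticulum and of the COPI coat were added after signals were seen. Sec61beta and Sec61alpha, of the channel through which new proteins enter the endoplasmic reticulum, had 5043 and 3016.5 units, and 8 of 14 genes of this step exceeded the level. Of 5 subunits of the COPI coat of Golgi vesicles 4 exceeded it, with betaCOP highest at 1047.1. The V-ATPase, the proton pump of acidic organelles, had 10 of 29 subunit genes above the level, led by Vha26 (1012.9), VhaSFD (939.1) and VhaM9.7-b (930.4). The shares were 57.1% of entry genes, 80% of COPI subunits and 34.5% of V-ATPase subunits, on few genes each, against 17.9% of all genes. Several V-ATPase subunits have paralogues: Vha36-1 had 413.9 units, while Vha36-2 and Vha36-3 had 32.4 and 126.5.

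Hemocyte genes were uneven, with secreted proteins high and surface receptors low. Of the 4 marker genes, Nplp2 had 10888.3 units, Hml, which encodes the clotting protein hemolectin, had 922.6 and ranked 384th, and Pxn, which encodes the matrix enzyme peroxidasin, had 598.1 and ranked 864th. These 3 exceeded the chemoreceptor level and lay in the top 10% of genes. The remaining marker, srp, had 291.8 units and ranked 2816th, below the level though above every bacterial, mouse and yeast control. Each of the 4 was measured by 1 probe set. Hml, Pxn and srp lay within a factor of 3.40 of the level, the median gap between 2 probe sets of a gene. Their place above or below it is therefore uncertain. In a bulk sample fewer cells of a type and less RNA per cell cannot be told apart.

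Of 15 genes for proteins that plasmatocytes secrete, 11 exceeded the level and 7 were in the top 10%, with a median of 498.5 units. SPARC, which encodes a collagen-binding matrix protein, had 8876.6 units, and Idgf3, a chitinase-like growth factor gene, had 1564.3. The laminin chain genes LanA, LanB2 and LanB1 had 712.1, 653.2 and 473.9 units, so all 3 chains of the laminin trimer were above the level. Tig (498.5), Ppn (481.4, with 20.4 at its other probe set) and Glt (444.5), also matrix genes, lay above it. Both collagen IV chains were far below, Col4a1 at 50.5 and vkg at 49.7 units, as were Idgf2 (78.3) and Idgf1 (60). Fat body and other tissues also express SPARC, laminins and collagen IV, so these genes do not mark hemocytes alone.

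Receptors of phagocytes had mostly low signals. Of 12 measured, 1 lay above the level, or 8.33% against 17.9% of all genes. It was Dscam1, an immunoglobulin receptor of neurons and hemocytes, with 561.8 units at 1 probe set and 25.0 at the other. Pvr, the PDGF and VEGF receptor on which hemocytes depend, had 356.8 units and drpr, the engulfment receptor Draper, had 290.2 (43.7 at its other probe set). The phagocytic receptor eater had 197 units, NimC1 43, crq, a CD36-like scavenger receptor, 24.7, and Sr-CI 20.1. The median of the list was 59.1, under the median of all genes. Among transcription factors, ush, the partner of Serpent, had 133.4 units, and gcm2 and gcm, known from plasmatocyte fate, had 40.2 and 15.8.

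Genes of the other hemocyte classes were few, with 4 measured in each list. None of 4 crystal cell genes exceeded the level, against 17.9% of all genes, and 4 genes are too few to compare the shares. The prophenoloxidase gene PPO1 had 319.2 units, PPO2 123.2, peb 35.4 and lz, the Runx factor that specifies crystal cells, 11.5. Of 4 lamellocyte genes, atilla, a marker of lamellocyte surfaces, had 425 units, just above the level, and msn had 370.9, just under it. ItgaPS4 had 99.9 and PPO3 had 93.3. The lamellocyte median, 235.4 units, lay above the median of all genes and the crystal cell median, 79.3, below it. Both medians lie in the range of the controls of other organisms, where signals have no order. Over the 3 plasmatocyte lists together 12 of 31 genes exceeded the level, or 38.7% against 17.9% of all genes, and 1 of 16, or 6.25%, when the secreted proteins are left out. The secreted list held 11 of the 12. Of the 12, Pxn, Dscam1, Tig, Ppn, LanB1 and Glt had signals under the 605.3 units of the highest chemoreceptor.

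**Figure D4:**
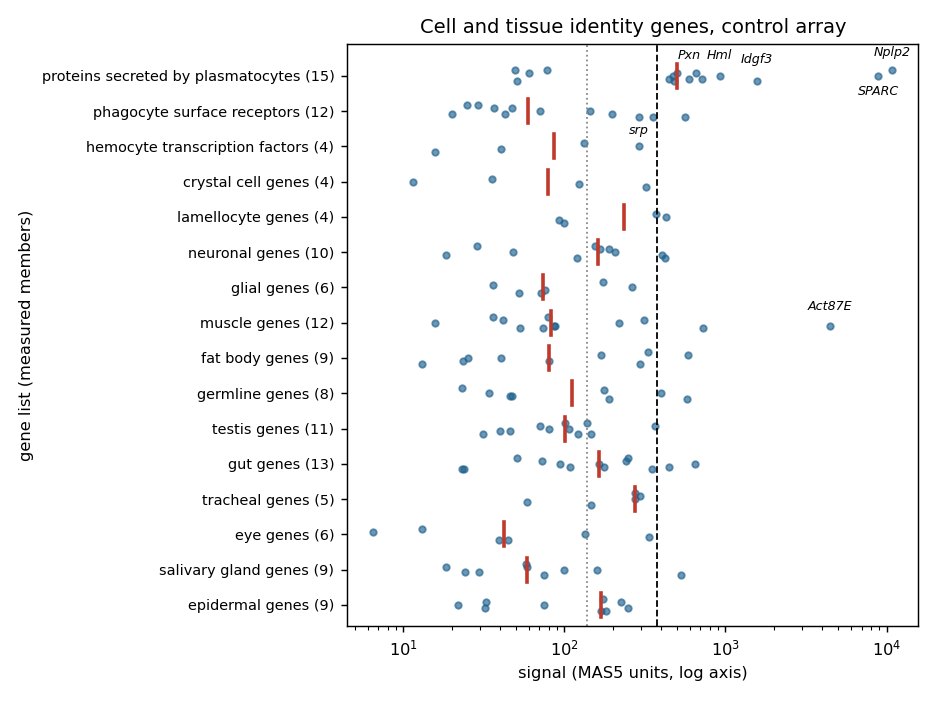
Signal (MAS5 units, log axis) of each measured member of 16 lists of cell and tissue identity genes; red bars are medians, the dashed line is the chemoreceptor level and the dotted line the median of all genes. Secreted plasmatocyte proteins are the 1 list whose median lies beyond the dashed line.

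Few identity genes of other tissues exceeded the level. Of 98 measured genes of neurons, glia, muscle, fat body, germline, testis, gut, trachea, eye, salivary gland and epidermis, 10 exceeded the level, or 10.2% against 17.9% of all genes, with a median of 97.1 units. No gene of the glial, testis, tracheal, eye or epidermal lists was among them, although the tracheal and epidermal medians, 273.1 and 169.3 units, lay above the 137.6 of all genes. Each of these lists held only 5 to 11 measured genes. In the neuronal list Appl (424.1) and ChAT (403.2, with 6.9 at its other probe set) lay just above, while elav, the pan-neuronal RNA-binding protein, had 120.2 units and para, the sodium channel, 28.8. The germline list had tud (574.7) and the innexin gene zpg (397.9), against vas at 47.2, osk at 34 and piwi at 23.2. The fat body list had the storage protein gene Lsp2 at 585.8 units, with Fbp1 at 80.4 and Yp2 at 23.4. Jon25Bii (651.6), a gut protease gene, the maltase gene Mal-A1 (448.3) and the salivary glue gene Sgs8 (530.2) were the others outside muscle. These isolated values were of the size of the 7 chemoreceptors above the level, which ran up to 605.3 units, except Jon25Bii.

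In the muscle list the 2 genes above the level were both actins, each seen by an _f_at probe set alone. Act87E had 4478.6 units and Act79B had 724.6, whereas the muscle motor and scaffold genes Mlc2 (79.3), sls (73.4), Mlc1 (41.6) and bt (36.2) were low. Actins are near-identical in coding sequence, and the cytoplasmic actin genes were not analysed here, so these signals cannot be assigned with certainty. The 3 probe sets of the actin control gave 1067.6, 7419.7 and 875.4 units. Among tubulins betaTub60D had 2714.1 units (882.3 at its other probe set), alphaTub85E 2577.8 and alphaTub84D 1870.9, and betaTub56D 244.5. Tubulin genes also share much sequence. With plain probe sets alone the count above the level was 0 of 10 for the muscle list, 0 of 1 for actins and 2 of 6 for tubulins. The share of all genes in this setting was 17.5%.

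Few embryonic patterning genes exceeded the level. Of 32 measured Hox, gap, pair-rule, segment polarity, dorsoventral and mesoderm genes, 2 exceeded it, or 6.25% against 17.9% of all genes. They were the pair-rule genes eve (595.7) and ftz (568.3), both under the 605.3 units of the highest chemoreceptor. A further 4 lay above every control of another organism: hry (355.1), twi (333), sna (288.3) and hb (275). The mesoderm regulators twi and sna belong to the dorsoventral and mesoderm list, whose median of 202 units was above that of all genes. The 7 segment polarity genes all had signals of at most 44.1 units, including hh and ptc of the Hedgehog pathway, and the 4 Hox genes at most 164.1. These lie in the range of the controls of other organisms, where signals have no order. Of the sex determination genes none exceeded the level, with Sxl, the switch gene of female fate, at 220.2 units, dsx at 239 and tra at 219. In the dosage compensation list msl-1 had 460.2 units and msl-2, whose protein is made in males, 205.2.

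Few secreted signals and none of the listed receptors exceeded the level. Of 22 ligand genes 2 did, or 9.09% against 17.9% of all genes: spi, the main ligand of the EGF receptor, had 1807.1 units, and Pvf2, a ligand of Pvr, had 712.5. The cytokine upd2 had 132.3 units, the BMP gene dpp 71.2, hh 19.4 and the EGF receptor ligand grk 12. No receptor tyrosine kinase of 17 measured exceeded the level, and Pvr was the highest, but 10 of the 17 lay above the median of all genes and their own median was 145.8 units. EGF receptor and insulin receptor genes, Egfr and InR, had 177.3 and 144.9 units. The BMP receptor gene tkv (352.7) and the cytokine receptor gene dome (321.4) led the 14 other receptors, none above the level. None of 20 nuclear receptors exceeded it. EcR, the ecdysone receptor, had 212.2 units at its higher probe set and 15.3 at the other, and its partner usp had 186.9.

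The immune genes included a few very bright ones. Of 7 measured antimicrobial peptide genes, DptB, a diptericin gene, had 3563.4 units and AttD, an attacin gene, 1519, both in the top 10%. The others were below the level: CecB 250.4, Def 188, Drs 165.6, Drsl5 127.7 and Mtk 102. Signalling genes of the Toll and Imd pathways exceeded it in 2 of 16 cases, or 12.5% against 17.9% of all genes. They were Dredd, the caspase of the Imd pathway, at 432.3 units and Tab2 at 412. The NF-kappaB genes dl, Dif and Rel had 114.2, 75.4 and 13.8. None of 7 peptidoglycan recognition genes exceeded the level, against 17.9% of all genes, and PGRP-LB was highest at 344.4. Tep4, which encodes a complement-like thioester protein, had 813.8 units, against 76.9 for Tep3.

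Detoxification enzymes differed by family. Of 34 glutathione S-transferases 9 exceeded the level, or 26.5% against 17.9% of all genes. GstD1 had 4855.7, GstO3 2858.1 and GstD3 1258.1 units. Of 81 cytochrome P450 genes 6 exceeded the level (7.41%), with Cyp4p2 at 677.6 and Cyp6a8 at 500.1. Of 33 UDP-glycosyltransferases 1 did (3.03%), Ugt49B1 at 428.8. The medians were 220.8, 61.3 and 76.7 units, so those of P450 and UDP-glycosyltransferase genes were close to the 69.0 units of chemoreceptors.

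Families of specialized tissues were mostly low, with single exceptions. No accessory gland protein gene of 12 exceeded the level, and their median of 19.4 units was among the lowest. Of 35 odorant-binding proteins 2 did, Obp99a (536.7) and Obp19d (393.6). Of 23 Jonah and trypsin proteases 1 did, and of 24 Osiris genes 2 did. The shares were 5.71% of odorant-binding proteins, 4.35% of these proteases and 8.33% of Osiris genes, against 17.9% of all genes. Cuticle proteins had 15 of 92 above the level (16.3%) and 9 in the top 10%, shares near those of all genes. Ccp84Ae had 1857 units, Ccp84Ad, of the same gene cluster, 1053.3, and Cpr64Aa 861.4. Among 9 nicotinic acetylcholine receptor subunits nAChRbeta3 had 1638.6 units, and the next was nAChRalpha7 at 238.5. In the voltage-gated channel list 1 of 13 exceeded the level, Sh at 410.1 (18.2 at its lowest probe set).

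**Figure D5:**
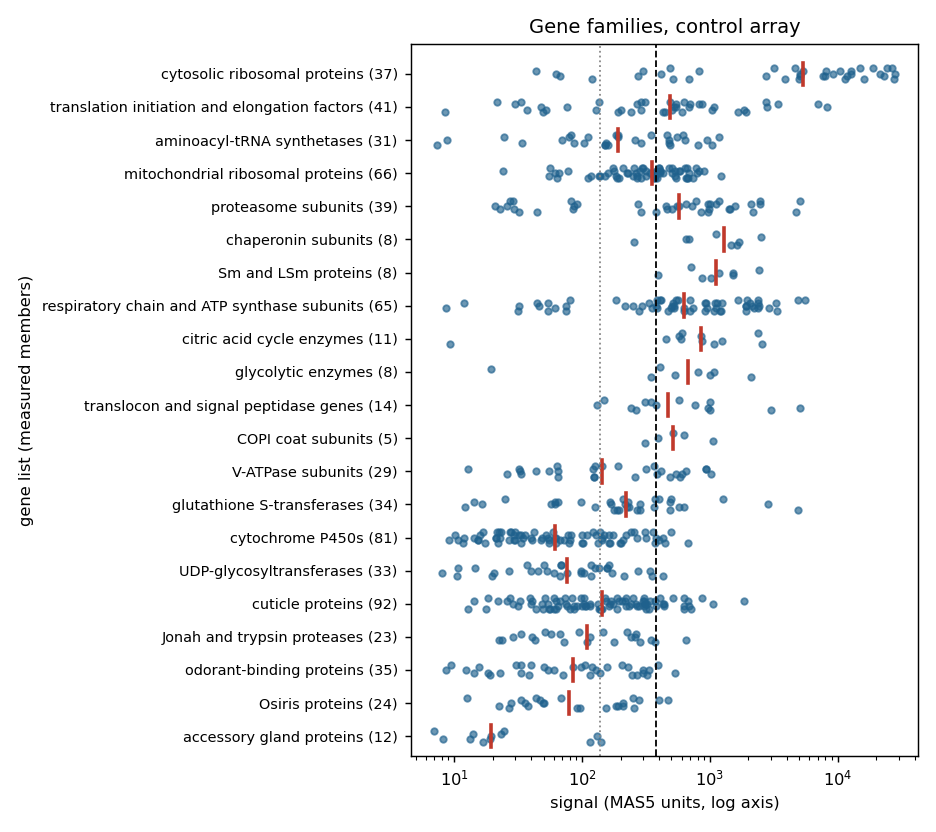
Signal (MAS5 units, log axis) of each measured member of 21 gene families; red bars are medians, the dashed line is the chemoreceptor level and the dotted line the median of all genes. Medians of cytosolic ribosomal, chaperonin, Sm and energy genes lie to the right of the dashed line, and that of mitochondrial ribosomal proteins, 353.3, just to its left. Those of accessory gland, P450 and odorant-binding genes lie to the left of the dotted line.

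Neuropeptide genes, a list added after signals were seen, gave an uneven picture. Of 25 measured, Nplp2 and Nplp4 (6898.2 units at an _r_at probe set) were in the top 1%, and Nplp3 had 450.4. The remaining 22 were below the level, among them CCHa2 at 335.1, Akh at 64.8 and Capa at 17.4. Of 31 aminergic and peptide receptors 3 exceeded it, TkR99D (462.2), PK1-R (443.5) and sNPF-R (419), and none was in the top 10%. The shares above the level were 12% of neuropeptide genes and 9.68% of these receptors, against 17.9% of all genes.

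Genes still named by a CG number made up 41.3% of all genes, 24.2% of the top 10% and 9.26% of the top 1%. Of the 10 in the top 1%, CG15784 had the highest signal at a plain probe set. CG8036 (2908.3), CG2076 (2446), CG13040 (2376.6), CG15098 (2218.6) and CG11267 (2141.9) also rested on 1 probe set each. CG13678 had 3147 and 921.3 units at its 2 probe sets and CG13051 had 2174.5 and 822.1, so these 2 exceeded the level with both. The lists of ribosomal proteins, translation factors, proteasome, respiratory chain and chaperonin subunits together held 1.75% of all measured genes and 43.5% of the top 1%.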

How the data were processed

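Total RNA of the control culture was labelled with biotin and hybridized to an Affymetrix DrosGenome1 array, per the labels and the file headers. The deposited intensities are signals that the authors computed with MAS5, per the submitters' processing notes. Its version and settings are not given in the sources used here, and present and absent calls were not used. The values have a mean of 200.0 units after trimming 2% at each end, over 14010 probe sets including 44 controls, and were used as deposited. Platform annotation named the probe sets, and for 12394 of them the symbol was replaced, by gene ID, with that of the RefSeq gene table (assembly Release 6 plus ISO1 MT), while 49 kept the platform's symbol.

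Genes were ranked by their highest probe set. The reference level, the 25 genes and 10 unnamed probe sets to be named, and the list members to be named followed fixed rules. The members and lists were chosen with earlier results of these data known, and 14 lists were added or divided after signals were seen. Added were aminoacyl-tRNA synthetases, import translocases, endoplasmic reticulum entry genes, COPI, Rab GTPases, nucleoporins, Sm proteins, cyclins, aminergic and peptide receptors, and neuropeptides. The others came from the proteasome and respiratory chain lists. Alternatives were other levels, the median or lowest probe set of a gene, and plain probe sets alone. Sequences were not used here. Counts were made with Python 3.11.15, numpy 2.4.6 and pandas 2.3.3. The procedure was tested on simulated data, with background drawn from the chemoreceptor signals and a large rise in chosen genes. Only genes with a single probe set were checked there. The choice of the highest probe set and shared probes were not covered.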

Additional observations from a re-analysis of the deposited data

Results flagged for a closer look

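Probe sets without a gene name fall outside the gene ranking, whatever their signal. Of the 1523 without exactly 1 gene symbol, 33.7% had a signal above the brightest bacterial, mouse or yeast control, against 31.4% of genes. The shares are of unlike units, since a gene is represented by its highest probe set. The 10 brightest stand out because each has a higher signal than most named genes of the top 25. Probe set 143620_at had 42580.1 units, the 2nd highest of all 13966, and 143616_at had 28652.3. The next were 147686_at at 23799.3, 142798_at at 23626.5, 153215_at at 22975.9, 143058_f_at at 22471.5 and 150949_at at 22464.4 units. Probe sets 148318_at (21888), 149019_at (21174.8) and 153994_at (20019.8) complete the 10. Their transcripts were not identified here.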

How the results depend on the processing

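The share of genes above the level, 17.9%, depended on where the level was set. It was 28.1% at the 90th percentile of chemoreceptors, 8.79% at the 99th, 53.2% with the median of all probe sets as the level, and 31.4% with the highest control of another organism, a level chosen after seeing the data. It was 15.9% with the median probe set of a gene and 15.2% with the lowest, also chosen after seeing the data, and 17.5% with plain probe sets alone. Of hemocyte genes, 12 of 31 with the reported level, 7 exceeded the level at the 99th percentile, against 8.79% of all genes. The count was 15 of 31 at the 90th percentile (28.1% of all genes) and with the control level (31.4%). With the median level it was 18 of 31, near the 53.2% of all genes. It was 10 with the median or lowest probe set and 11 with plain probe sets. Of other tissue genes, 10 of 98, the count was 17 at the 90th percentile, 5 at the 99th, 44 with the median level and 21 with the control level. The shares of all genes in these settings were 28.1%, 8.79%, 53.2% and 31.4%. Of the 1084 genes in the top 10%, 983 were shared with the median, 943 with the lowest and 1044 with plain probe sets. Of 74 list counts, 71 stayed within 1.5 times with the median, 70 with the lowest and 70 with plain probe sets. The median and lowest probe set cannot change the 9635 of 10844 genes with 1 probe set, nor a list without genes above the level. Agreement in these settings was thus largely fixed in advance. With other levels, 45 list counts stayed within 1.5 times at the 90th percentile, 46 at the 99th, 37 with the control level and 18 with the median level. No paired analysis was possible because 1 array was described. With 1 array no replicate could be left out, and signals under the controls of other organisms have no order.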

Other observations

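Cell cycle genes had a wide range of signals. The lists of cyclins, nucleoporins, Rab GTPases and mitochondrial import subunits given here were added after signals were seen. PCNA, the sliding clamp of DNA polymerase, had 3727.2 units. Of 10 cyclins 3 exceeded the chemoreceptor level, against 17.9% of all genes: CycB, a mitotic cyclin, at 1440.1, CycH at 660.2 and CycY at 426.2. The median of the cyclins was 253.1 units and the lowest, CycD, had 18.2. Of 5 Mcm genes of DNA replication 3 exceeded the level, Mcm2 (756.4), Mcm3 (705.4) and Mcm6 (407.6), and Mcm10 was at 22.7. Of 20 nucleoporins 6 exceeded it, with Nup98-96 highest at 1189.8 units, and of 16 Rab GTPases 4 did, with Rab27 highest at 863.6. Of 11 subunits of the mitochondrial import translocases 4 did, led by Tom40 at 991.4. The shares were 30% of nucleoporins, 25% of Rab genes and 36.4% of import subunits, on few genes each, against 17.9% of all genes. The histone variant gene His2Av had 3410.7 units, and other histone genes were not analysed here.

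Of the measured neighbours of genes in the top 10%, 16.3% were in the top 10% themselves, against 9.33% of the neighbours of other genes, over 10797 adjacent pairs. Neighbours were taken as adjacent measured genes on a chromosome, and shared probes or sequence between them were not tested.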
